A study of Mus musculus with 24 samples.

Results

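The genes described here are 10 genes of protein folding and quality control in the endoplasmic reticulum (ER), listed by symbol. Earlier results of these data were known when the list was chosen. All 10 were found among the 15582 genes of the deposited table, and all 10 passed the filter on low values, which kept 6540 genes. They are the chaperones Hspa5, Hsp90b1 and Hyou1, the lectin chaperones Calr and Canx, the J-domain co-chaperones Dnajb9, Dnajb11 and Dnajc3, and the ER-associated degradation (ERAD) genes Herpud1 and Derl3. Liver RNA came from male B6C3F1 hybrid mice, 4 weeks old, whose drinking water held dichloroacetic acid (DCA) for 6 days. DCA blocks pyruvate dehydrogenase kinase and forms when drinking water is chlorinated. The groups were 0 g/L (control), 1 g/L, 2 g/L and 3.5 g/L, with 6 libraries each and 24 in all, and libraries are called by the number that opens their title. All mice had the same strain, sex and age, and the tissue was frozen liver of mixed lobes.

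Proteins that a hepatocyte secretes fold in the ER, where Hspa5 (BiP) holds unfolded chains, J-domain proteins bring it to its clients, and Canx and Calr bind sugar-bearing proteins. Chains that fail to fold are drawn out of the ER and degraded by ERAD, for which Herpud1 and the derlins are membrane factors. When unfolded protein builds up, the sensors Ern1, Eif2ak3 and Atf6 start the unfolded protein response (UPR), which raises transcription of chaperone and ERAD genes. The UPR factors Atf6 and Xbp1 act through the ER stress element (ERSE), a CCAAT box followed at a fixed distance by CCACG, and through a shorter form, ERSE-II.

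Most of the promoters hold these letters, and they are shown because this is a sequence feature that members share. RefSeq promoter windows (GRCm38.p6), from 250 bases before to 50 after the gene start, were at hand for 9 of the 10 genes, Hyou1 being without one. The ERSE, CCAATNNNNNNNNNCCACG on either strand, was found in 6 of these 9 windows, against 0.119% of all 32851 windows. ERSE-II, ATTGG and CCACG with 1 base between them on either strand, was found in 2 of the 9, Herpud1 and Dnajb11, against 0.0365% of all windows. No window of the 9 held both, but both contain CCACG, which alone was in 32.8% of all windows and in all 9 of these. Dnajb9 had neither element in its window. In the stretches below, printed 5′ to 3′ along the gene up to the base before its start, capitals mark the fixed letters of the element, and an element on the opposite strand reads CGTGG first and ATTGG last.
Hspa5, chr2:34771840-34772089, plus strand: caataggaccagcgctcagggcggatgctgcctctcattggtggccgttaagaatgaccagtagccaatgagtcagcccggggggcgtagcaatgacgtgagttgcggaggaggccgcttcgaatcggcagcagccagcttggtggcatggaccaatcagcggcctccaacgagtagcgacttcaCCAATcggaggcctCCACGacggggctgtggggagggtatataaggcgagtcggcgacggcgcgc
Hsp90b1, chr10:86705445-86705694, minus strand: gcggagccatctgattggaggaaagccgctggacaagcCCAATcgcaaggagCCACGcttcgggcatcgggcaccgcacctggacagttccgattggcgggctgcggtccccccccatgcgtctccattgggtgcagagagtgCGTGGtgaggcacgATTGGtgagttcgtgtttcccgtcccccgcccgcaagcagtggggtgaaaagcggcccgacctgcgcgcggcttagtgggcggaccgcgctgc
Derl3, chr10:75893148-75893397, plus strand: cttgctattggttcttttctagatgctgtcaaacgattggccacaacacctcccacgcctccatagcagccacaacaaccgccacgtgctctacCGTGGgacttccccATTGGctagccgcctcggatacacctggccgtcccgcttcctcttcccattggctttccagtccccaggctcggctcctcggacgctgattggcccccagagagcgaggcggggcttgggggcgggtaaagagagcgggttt
Herpud1, chr8:94386179-94386428, plus strand: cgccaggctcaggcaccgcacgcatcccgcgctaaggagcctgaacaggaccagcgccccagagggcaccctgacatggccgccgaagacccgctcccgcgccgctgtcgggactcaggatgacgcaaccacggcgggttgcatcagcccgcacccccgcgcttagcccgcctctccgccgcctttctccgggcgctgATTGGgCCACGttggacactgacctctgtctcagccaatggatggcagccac
Shorter stretches show the single ERSE of Calr, Canx and Dnajc3.
Calr, chr8:84847055-84847113, minus strand: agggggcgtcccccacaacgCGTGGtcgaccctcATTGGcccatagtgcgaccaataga
Canx, chr11:50325780-50325838, minus strand: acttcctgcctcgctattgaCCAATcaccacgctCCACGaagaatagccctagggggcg
Dnajc3, chr14:118937807-118937865, plus strand: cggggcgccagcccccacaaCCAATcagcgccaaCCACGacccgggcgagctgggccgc
Hsp90b1 held the element in 2 places, at 212 to 194 and 107 to 89 bases before its start, on opposite strands. In Hspa5 it lay 65 to 47 bases before the start, in Dnajc3 105 to 87, in Canx 145 to 127, in Derl3 156 to 138 and in Calr 162 to 144. The ERSE-II of Herpud1, ATTGGGCCACG, lay 52 to 42 bases before the start, and that of Dnajb11, ATTGGCCCACG, lay 7 to 17 bases after its start. The UPR element core TGACGTG was in 1 of the 9, Hspa5, and in 2.01% of all windows. A match is a description of letters and not a measured binding site. The elements were searched for because of their known role in such genes, so the shares are a description and not a test. Herpud1 and Dnajb11 are shown for their ERSE-II, a choice made after the matches were seen.

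**Figure D1:**
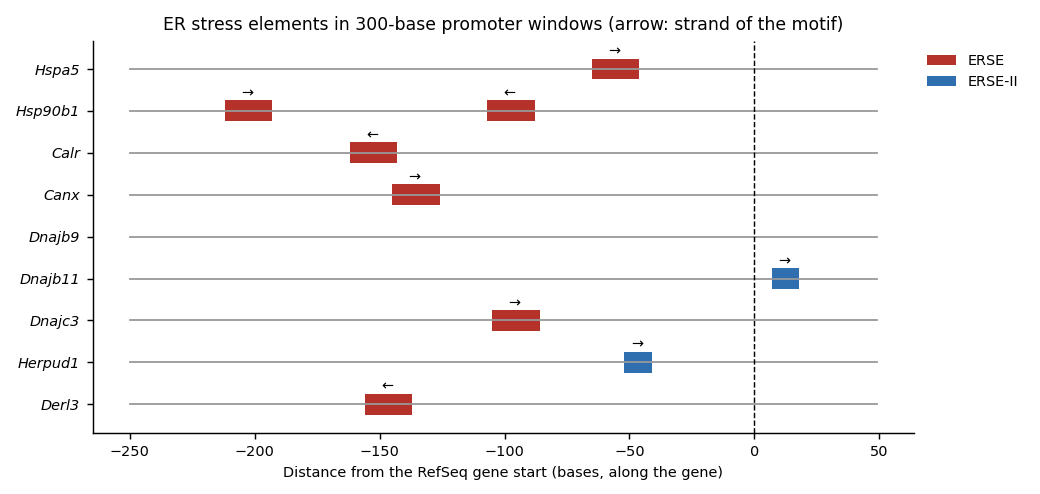
ER stress elements in the promoter windows of 9 genes, drawn by distance in bases from the RefSeq gene start (dashed line), red for ERSE and blue for ERSE-II, with an arrow for the strand of the motif. Of the 9 genes, 6 hold the ERSE, Hsp90b1 in 2 places, and Herpud1 and Dnajb11 hold ERSE-II.

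Values are RPKM as deposited, reads scaled to the length of the gene model and to the mapped reads of the library, and a log2 fold is the difference of log2(RPKM + 1) between a dose and control, fitted by limma with n = 6 per dose. A gene is said to have risen or fallen where limma's p, adjusted by Benjamini-Hochberg over all 6540 tested genes, was under 0.05. The 60 pairs of libraries that share a dose had r = 0.9788 to 0.9949 over the genes, and relative depth, read from the steps between low values, ranged from 0.951 to 1.131. The titles also hold L1, L2 or L3, an unexplained tag. L1 marks the controls and 3 libraries of 1 g/L, L2 the other 3 of 1 g/L and all of 2 g/L, and L3 all of 3.5 g/L, so at 3.5 g/L tag and dose cannot be told apart. The labels do not tie each library to a separate animal, and p-values cover the spread among libraries, which may be technical. The comparisons with control share the control libraries. In whole liver, fewer cells of a type and less RNA per cell cannot be told apart.

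The ER genes were lower in treated livers than in controls, in more of them at each higher dose. At 3.5 g/L 9 of the 10 fell and none rose, where 12.9% of all tested genes fell and 38.6% rose. At 2 g/L 7 of 10 fell and none rose, against 10% and 41.9% of all tested genes. At 1 g/L 2 of 10 fell, Herpud1 and Derl3, against 3.03% of all tested genes, while 8.35% rose. Over the doses the log2 slope per g/L was negative and past the test in 9 of 10, all but Dnajb9, where 12.6% of all tested genes had such a slope. With the title tag as a term the slope rested on 0, 1 and 2 g/L only, since L3 marks all of 3.5 g/L. That slope was past the test in 2 of 10, Herpud1 and Canx, and in 853 of all tested genes, 245 of them negative. For Hspa5 it was −0.06 (adjusted p = 0.837), against −0.19 over all 4 doses without the term. Every library lay below every control in 8 of the 10 at 3.5 g/L, in 1 at 2 g/L (Herpud1) and in 0 at 1 g/L, against 5.86%, 3.1% and 1.61% of all tested genes. The fold was negative in all 10 genes at each dose, against 34.8%, 29.5% and 33.8% of all tested genes at 1, 2 and 3.5 g/L. For 1, 2 and 3.5 g/L the median log2 fold of the 10 was −0.31, −0.41 and −0.74, where the median of all tested genes was 0.05, 0.12 and 0.10.

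Median-ratio and quantile scaling moved these folds without ending a call against control. With median-ratio factors the median of all tested genes came to 0.001, −0.001 and −0.004 at 1, 2 and 3.5 g/L, and rises made up 40.7%, 50.3% and 50.2% of all calls in place of 73.4%, 80.6% and 75% as deposited. The 9 genes that fell at 3.5 g/L fell under those factors as well, where 23.3% of all tested genes did. They brought Canx and Dnajb9 past the test at 1 g/L and Hyou1 at 2 g/L.

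**Figure D2:**
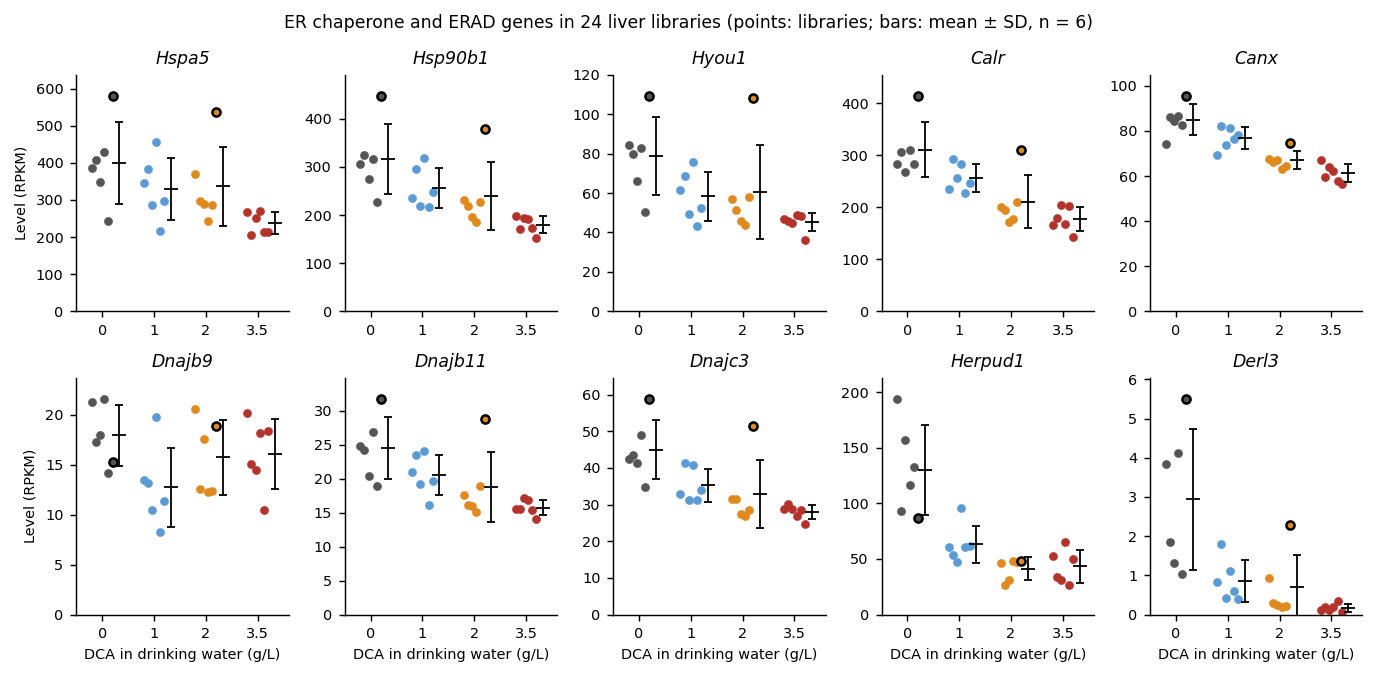
RPKM of each gene (vertical axis, from 0) in every library by DCA dose in g/L (horizontal axis). Points are libraries, bars are mean ± SD of 6, and black rims mark control 8 and the 2 g/L library 78. The rimmed points stand highest of their dose in most genes, but not in Herpud1 or Dnajb9.

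The general chaperones were among the most abundant transcripts of the table and stood lowest at the top dose. Hspa5, the ER member of the Hsp70 family and the master regulator of the UPR sensors, ranked 49 by mean level in controls. Its lowest, median and highest levels were 245, 397 and 580.0 RPKM in controls, 216, 321 and 456 at 1 g/L, 243, 294 and 536 at 2 g/L and 206, 233 and 270.2 at 3.5 g/L. The groups overlapped at each dose, and 3 of 6 libraries at 3.5 g/L lay below the lowest control. Hspa5 fell at 3.5 g/L by 0.71 on the log2 scale (SE 0.19, adjusted p = 0.00319). At 1 g/L (−0.27, SE 0.19) and 2 g/L (−0.25, SE 0.19) it did not pass, with 95% intervals of −0.66 to 0.13 and −0.64 to 0.15.

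Hsp90b1 (GRP94), the ER member of the Hsp90 family, had 153, 182 and 197 RPKM as its lowest, median and highest at 3.5 g/L, against 227, 311 and 447 in controls, with no overlap. It fell by 0.79 at 3.5 g/L (SE 0.15, adjusted p = 0.000145) and by 0.41 at 2 g/L (SE 0.15, adjusted p = 0.0267). The call at 2 g/L ended without control 8 (−0.31, adjusted p = 0.083), without 2 g/L 75 (−0.36, 0.0661) or without 2 g/L 76 (−0.35, 0.07). It also ended with no filter on low values (0.0517), with only the libraries of both doses in the fit (0.0726) and with the tag as a term (−0.46, 0.251). Hyou1 (GRP170), a large Hsp70 relative that recharges Hspa5 with nucleotide, had 36.3 to 48.6 RPKM at 3.5 g/L, against 50.4 to 109 in controls. It fell by 0.76 at 3.5 g/L (SE 0.18, adjusted p = 0.00138) and did not pass at 2 g/L (−0.40, SE 0.18, adjusted p = 0.0709), where the call came in without library 78 (−0.58, adjusted p = 0.00309) or without control 7 (−0.52, adjusted p = 0.0191). For these abundant chaperones the mean at 3.5 g/L was thus 59.4% of control for Hspa5, 56.9% for Hsp90b1 and 57.3% for Hyou1.

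Both lectin chaperones fell at 2 and 3.5 g/L. Calr, the soluble one that binds calcium, averaged 311 ± 52.8 RPKM in controls and 257 ± 26.6, 211 ± 50.8 and 177 ± 23.3 RPKM at 1, 2 and 3.5 g/L (SD, n = 6 each). It fell by 0.57 at 2 g/L (SE 0.13, adjusted p = 0.000562) and by 0.81 at 3.5 g/L (SE 0.13, adjusted p = 1.01e-05), where its highest library, 204 RPKM, lay below the lowest control at 268. Canx, its membrane-bound counterpart, varied least within a dose, with a coefficient of variation of 6.06% to 8.11%. Canx averaged 85.0 ± 6.89 RPKM in controls and 76.9 ± 4.85, 67.2 ± 4.07 and 61.2 ± 4.02 RPKM at 1, 2 and 3.5 g/L. Its fall was the smallest of the 9 at 3.5 g/L (0.47, SE 0.06, adjusted p = 9.91e-07) and was past the test at 2 g/L as well (0.33, SE 0.06, adjusted p = 9.37e-05). With the tag as a term Canx still fell at 2 g/L, by 0.40 (adjusted p = 0.0133).

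Of the 3 J-domain co-chaperones, 2 fell at 2 and 3.5 g/L. Dnajb11 (ERdj3), which hands clients to Hspa5, had 14.1 to 17.1 RPKM at 3.5 g/L, against 18.9 to 31.7 in controls, with no overlap, and fell by 0.59 (SE 0.13, adjusted p = 0.000494). Dnajc3 (p58IPK), a co-chaperone that also inhibits the kinase Eif2ak3, had 24.7 to 30.2 RPKM at 3.5 g/L, against 34.9 to 58.7 in controls, and fell by 0.65 (SE 0.13, adjusted p = 0.000168). Both fell at 2 g/L too, Dnajb11 by 0.38 (adjusted p = 0.0158) and Dnajc3 by 0.46 (adjusted p = 0.00446). With only the libraries of both doses in the fit, 5 of the 10 genes were called at 2 g/L. Of all tested genes 3138 were called in that fit, 564 of these as falls. Dnajb11 was then no longer past the test (adjusted p = 0.051). With the tag as a term neither was, with −0.28 for Dnajb11 (adjusted p = 0.42) and −0.46 for Dnajc3 (adjusted p = 0.169).

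Dnajb9 (ERdj4), which represses the sensor Ern1 and is itself an Ern1 and Xbp1 target, passed the test in none of the comparisons as fitted here. Its lowest, median and highest levels were 14.2, 17.6 and 21.6 RPKM in controls, 8.22, 12.3 and 19.7 at 1 g/L, 12.3, 15.1 and 20.6 at 2 g/L and 10.5, 16.6 and 20.1 at 3.5 g/L. The lowest median was thus at 1 g/L, where 5 of 6 libraries lay below the lowest control, and the groups overlapped at every dose. The fold at 1 g/L was −0.49 (SE 0.17, adjusted p = 0.0652), and it came past the test with median-ratio factors (−0.56, adjusted p = 0.041), with quantile normalization (−0.55, 0.0463) and without control 7 (−0.55, 0.0496) or 1 g/L 52 (−0.62, 0.0236). At 3.5 g/L the fold was −0.16 (SE 0.17), with a 95% interval of −0.52 to 0.20.

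**Figure D3:**
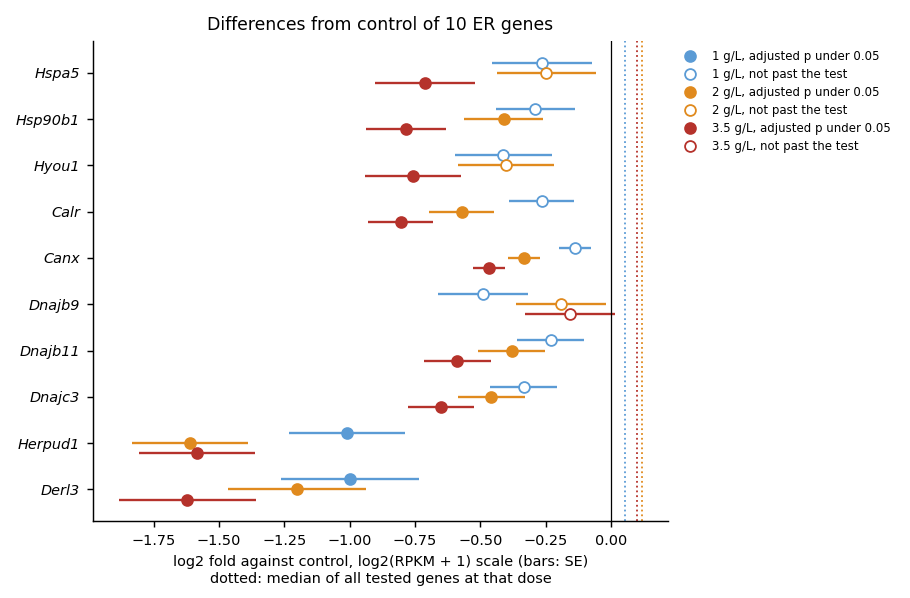
The log2 fold against control on the log2(RPKM + 1) scale (horizontal axis) of the 10 genes at 1, 2 and 3.5 g/L, with bars of 1 SE. Filled points passed limma's test, and dotted lines mark the median of all 6540 tested genes. All points lie left of 0, with Herpud1 and Derl3 farthest at each dose and Dnajb9 open at all doses.

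Herpud1, the ER membrane protein that organises the ERAD ubiquitin ligase complex, had fallen at the lowest dose. It lies on chromosome 8 at 94386429 to 94395371 (GRCm38). Its lowest, median and highest levels were 87.1, 125 and 194 RPKM in controls, 47.5, 60.6 and 95.6 at 1 g/L, 26.2, 47.0 and 48.6 at 2 g/L and 26.8, 42.1 and 65.2 at 3.5 g/L. At 1 g/L 5 of 6 libraries lay below every control, and at 2 and 3.5 g/L all 6 did. For 1, 2 and 3.5 g/L the mean was 48.6%, 31.8% and 33.2% of control. Its log2 fold was −1.01 at 1 g/L (SE 0.22, adjusted p = 0.0058), −1.61 at 2 g/L (SE 0.22, adjusted p = 3.45e-06) and −1.58 at 3.5 g/L (SE 0.22, adjusted p = 2.86e-06). Within the L1 libraries alone, 3 treated against 6 controls, the Herpud1 fold at 1 g/L was −1.21 (SE 0.23, adjusted p = 0.0399).

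Derl3, a derlin of the ERAD channel on chromosome 10 at 75893398 to 75895941, had the lowest mean at 3.5 g/L as a percentage of its control mean among the 10. Its deposited values were whole multiples of 1 step in every library, to within 0.05 of a read, so its reads could be counted. Controls 3, 4, 5, 6, 7 and 8 held 139, 70, 50, 158, 39 and 208 reads. Libraries 49 to 54 of 1 g/L held 30, 71, 17, 41, 22 and 15 reads, and libraries 73 to 78 of 2 g/L held 35, 11, 9, 8, 8 and 93. Libraries 97 to 102 of 3.5 g/L held 5, 8, 4, 8, 13 and 3 reads. Every library at 3.5 g/L lay below every control, while at 1 and 2 g/L the groups overlapped, at 2 g/L only through library 78. These steps are the coarsest that leave whole reads, and the lowest count, 3, has an exact Poisson 95% interval of 0.62 to 8.77 for counting error alone.

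In RPKM, Derl3 averaged 2.94 ± 1.80 in controls and 0.857 ± 0.535, 0.692 ± 0.834 and 0.173 ± 0.096 at 1, 2 and 3.5 g/L, so that the mean at 3.5 g/L was 5.87% of control. Its log2 fold was −0.999 at 1 g/L (SE 0.26, adjusted p = 0.0171), −1.20 at 2 g/L (SE 0.26, adjusted p = 0.000578) and −1.62 at 3.5 g/L (SE 0.26, adjusted p = 1.8e-05). The added 1 RPKM understates so low a gene, and with a pseudocount of 0.1 the folds were −1.60, −2.21 and −3.31. Within L1 alone, and with the tag as a term, Derl3 was not past the test at 1 g/L (−0.89 in both, adjusted p = 0.262 and 0.149). Derl3 is abundant in plasma cells and in pancreas, and their marker genes were checked in these libraries. The summed plasma cell and B cell markers (8 of 13 in the table, none past the filter) were 0.465 to 2.51 RPKM at 3.5 g/L, against 0.341 to 0.595 RPKM in controls.

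Of 14 pancreatic acinar markers 2 were past the filter, Amy1 and Cela1, and both were also present in every control liver. The summed acinar list was 25.8 to 34.2 RPKM at 3.5 g/L, against 55.1 to 68.0 RPKM in controls. Nearly all of that sum was Amy1 and Cela1, with medians of 51.2 and 10.1 RPKM in controls. Amy1 fell at 1, 2 and 3.5 g/L (−0.58, −1.38 and −1.08, adjusted p = 0.001, 9.91e-10 and 8.48e-09), and Cela1 at 2 and 3.5 g/L (−0.77 and −1.10, adjusted p = 4.56e-06 and 1.71e-08). Apart from these genes, no acinar marker exceeded 0.679 RPKM in any library. Their medians at 3.5 g/L were not below control except that of Ctrl (0.079 against 0.080 RPKM). Cel, under the filter and so not tested, had a median of 0.034 RPKM at 3.5 g/L, against 0.009 RPKM in controls. Its highest values were 0.152 and 0.034 RPKM in turn. Marker counts at 3.5 g/L are set against the 12.9% of all tested genes that fell there and the 38.6% that rose. Hepatocyte markers fell in 10 of 12 at 3.5 g/L. The 1 that rose was Hnf4a, with 122 to 133 RPKM there, against 84.1 to 112 RPKM in controls. The sum of the 12 was 24505 to 30744 RPKM at 3.5 g/L, against 32686 to 40706 RPKM in controls. Kupffer cell markers fell in 7 of 8 at 3.5 g/L (36.0 to 53.3 RPKM summed, against 57.6 to 80.7 RPKM in controls). None of the 7 endothelial markers fell there, and stellate markers rose in 1 of 8. Of 6 cholangiocyte markers in the table only 2 were past the filter, and neither fell. The part of these cell types in the falls of the ER genes was not tested.

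Between neighbouring doses most steps were within the spread. From 1 to 2 g/L, Herpud1 (−0.60, SE 0.22, adjusted p = 0.0443) and Canx (−0.19, SE 0.06, adjusted p = 0.0196) fell, 2 of 10 genes where 5.63% of all tested genes fell and 22.7% rose, and in none did every 2 g/L library lie below every 1 g/L library (2.11% of all tested genes). The Herpud1 step was no longer past the test when any one of 6 libraries was left out, 1 g/L 49, 52, 53 or 54 or 2 g/L 74 or 75, with folds of −0.48 to −0.61. Without control 8 and 2 g/L 78, 5 of 10 fell from 1 to 2 g/L, with Calr (−0.42), Dnajb11 (−0.27) and Dnajc3 (−0.26) joining. Those libraries were chosen after seeing the data. Of all tested genes 1965 were called without them, 434 of these as falls. From 2 to 3.5 g/L limma called none of the 10, with 3 at an unadjusted p under 0.05, where 5.54% of all tested genes fell and 4.79% rose, and none had all 3.5 g/L libraries below all of 2 g/L (2.02% of all tested genes). The intervals of that last step left room for change, as in Hspa5 (−0.46, 95% interval −0.86 to −0.07). For Herpud1 the step was 0.03 (−0.43 to 0.49).

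With the tag as a term, which could be fitted for 1 and 2 g/L only, 1 of 10 genes was called at 1 g/L (Herpud1, −1.21) and 2 at 2 g/L (Herpud1 at −2.01, adjusted p = 0.00146, and Canx). The others that had fallen at 2 g/L kept negative folds under wider errors, as Calr (−0.52, SE 0.22, adjusted p = 0.112) and Dnajc3 (−0.46, SE 0.23, adjusted p = 0.169). Within 1 g/L, Herpud1 had 47.5 to 60.9 RPKM in the L1 libraries and 60.4 to 95.6 in the L2 libraries, and for Hspa5 the L1 range of 286 to 383 RPKM lay inside the L2 range of 216 to 456.

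Libraries of the same dose differed in a way that most of these genes shared. Control 8 was the highest control in 8 of 10 genes and library 78 the highest of 2 g/L in 8 of 10, both for all but Herpud1 and Dnajb9. Hyou1 had 108 RPKM in library 78, against 44.0 to 58.2 in the other libraries of its dose, and Hspa5 had 536 RPKM there. In Herpud1 control 8 was the lowest control, at 87.1 RPKM. Library 78 also stood apart outside the ER genes, with the peroxisomal enzyme gene Ehhadh at 165 RPKM, against 673 to 1559 RPKM in the other 2 g/L libraries and 24.2 to 36.4 RPKM in controls. Without control 8 and library 78 all 9 genes still fell at 3.5 g/L, where 3281 of all tested genes were called, 839 of these as falls.

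**Figure D4:**
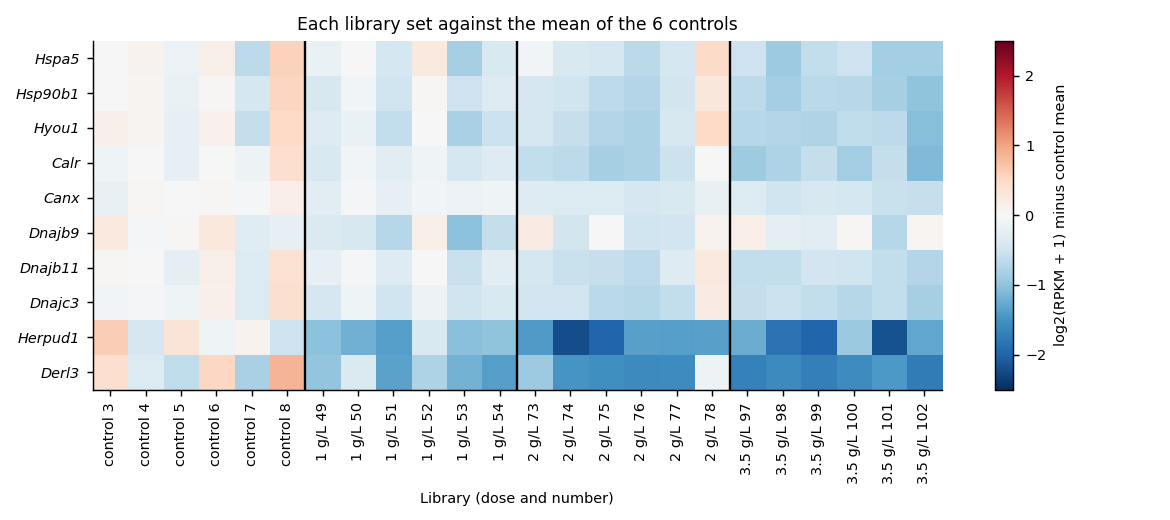
Each cell is log2(RPKM + 1) of a gene (rows) in a library (columns, by dose, black lines between doses) minus the mean of the 6 controls, blue for lower and red for higher. Herpud1 and Derl3 are blue from 1 g/L on, and the 2 g/L library 78 is near or above control in most other genes.

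After the mean of each dose was taken off, 8 of the genes still went up and down together across the 24 libraries. Their 28 pairs had Pearson r of 0.43 to 0.97 with a median of 0.86, the highest between Hyou1 and Dnajb11. Herpud1 did not share this, with r = 0.06 to the average of the other genes, and Dnajb9 shared it in part (r = 0.47). The pair that these genes formed had r = 0.56. Over all 45 pairs the median was 0.69, and 0.55 without control 8 and library 78. The points share libraries and depth, so these values are a description.

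**Figure D5:**
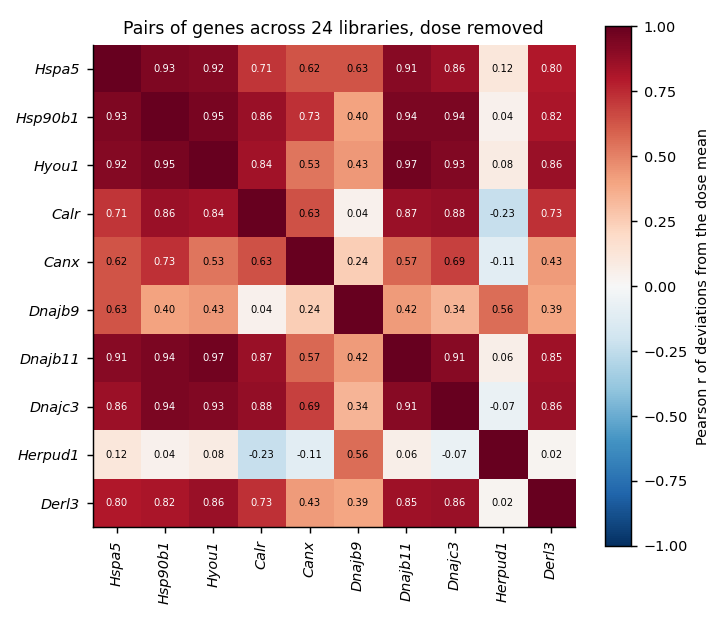
Pearson r between pairs of genes across 24 libraries after subtraction of the dose mean of log2(RPKM + 1), red for positive and blue for negative. The Herpud1 row stays between −0.23 and 0.12 except for Dnajb9 at 0.56, while pairs among Hspa5, Hsp90b1, Hyou1, Dnajb11 and Dnajc3 lie at 0.86 to 0.97.

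The tested genes outside the 10 whose deviations from the dose mean were most like the average of the 10 were led by Manf and Creld2. Manf, an ER protein secreted under stress, had r = 0.96 (rho = 0.94, 24 libraries) and Creld2, an ER stress-induced folding factor, r = 0.95 (rho = 0.90). Both fell at 3.5 g/L, Manf with 23.2 ± 3.00 RPKM, against 41.9 ± 12.4 in controls (−0.78, SE 0.19, adjusted p = 0.00127), and Creld2 with 22.6 ± 4.35, against 51.4 ± 23.7 (−1.03, SE 0.32, adjusted p = 0.00909). Gmppb, which makes the mannose donor of glycosylation, and its relative Gmppa followed at r = 0.92 and 0.86 and did not pass the test at any dose. Cad had r = 0.88 and fell at 3.5 g/L (−0.44, SE 0.13, adjusted p = 0.00698). The others were Lrrc59 (0.87), Gfpt1, which starts hexosamine synthesis (0.86), Fndc3b (0.85), Mesdc2, an ER chaperone of lipoprotein receptors (0.85), and Arf4 (0.85). Likeness within a dose did not always go with the same change over dose. Lrrc59 rose to 33.3 ± 5.27 RPKM at 2 g/L, against 19.0 ± 3.27 in controls (0.78, SE 0.10, adjusted p = 1.81e-06). Arf4 rose by 0.32 at 2 g/L (adjusted p = 0.00236) and Mesdc2 by 0.18 (adjusted p = 0.0433).

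Other genes of ER folding had both falls and rises. Of 38 further genes of ER folding and disulphide formation 27 were in the table and 23 tested. At 3.5 g/L 10 of these fell and 4 rose, at 2 g/L 6 fell and 6 rose, and at 1 g/L only Nucb1, a calcium-binding protein, fell (−0.28, SE 0.06). Over all tested genes 12.9%, 10% and 3.03% fell and 38.6%, 41.9% and 8.35% rose at 3.5, 2 and 1 g/L. The medians of the 23 were −0.06, −0.09 and −0.16 at 1, 2 and 3.5 g/L, against 0.05, 0.12 and 0.10 for all tested genes. Ero1lb, an oxidase that makes disulphide bonds, fell to 9.63 ± 1.59 RPKM at 3.5 g/L, against 18.7 ± 3.38 in controls (−0.88, SE 0.14, adjusted p = 1.32e-05), and by 0.69 at 2 g/L. Nucb2 fell by 1.15 at 3.5 g/L (SE 0.19, adjusted p = 2.86e-05) and by 0.63 at 2 g/L. Dnajc10, a J-domain disulphide reductase, rose at 2 g/L (0.40, SE 0.08, adjusted p = 0.000404), where Nucb1 fell by 0.40.

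None of the rest of the ERAD list fell, where 3.03%, 10% and 12.9% of all tested genes fell at 1, 2 and 3.5 g/L. The difference from these shares was not tested. Of 31 genes 19 were in the table and 18 tested, and rises came to 2, 9 and 6 for the 3 doses in turn, set against the 8.35%, 41.9% and 38.6% of all tested genes. Erlin1, which marks activated receptors for ERAD, rose at 1, 2 and 3.5 g/L by 0.28, 0.55 and 0.44 (adjusted p = 0.00522, 1.67e-07 and 1.59e-06). Faf2 rose at 1 g/L (0.20), and Fbxo6, Nploc4 and Jkamp rose at 2 g/L (0.38, 0.37 and 0.36) and at 3.5 g/L (0.21, 0.41 and 0.29). The close relatives of Herpud1 and Derl3, named here for their kinship after their values were seen, had no fall past the test. Herpud2 averaged 4.16 ± 0.41 RPKM at 3.5 g/L, against 3.75 ± 0.27 in controls (0.12, adjusted p = 0.0657), Derl2 9.21 ± 0.38, against 8.59 ± 0.32 (0.09, adjusted p = 0.155), and Derl1 21.2 ± 1.35, against 19.6 ± 1.35 (0.11, adjusted p = 0.122), with a rise of Derl1 at 2 g/L (0.22, adjusted p = 0.00334).

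Of 17 tested sensors and transcription factors of the UPR, 1, 6 and 7 rose and 1, 5 and 4 fell at 1, 2 and 3.5 g/L. Over all tested genes 8.35%, 41.9% and 38.6% rose and 3.03%, 10% and 12.9% fell. The sensors, named for their role after their values were seen, were past the test once each or not at all. Ern1 averaged 12.5 ± 0.93 RPKM at 3.5 g/L, against 13.0 ± 2.49 in controls (−0.03, SE 0.11, adjusted p = 0.831). Eif2ak3 fell at 2 g/L (−0.25, adjusted p = 0.0257) and did not pass at 3.5 g/L (−0.19, adjusted p = 0.0843). Atf6 rose at 3.5 g/L (0.20, SE 0.07, adjusted p = 0.0185), as did Atf4, the factor translated under Eif2ak3 signalling (0.38, SE 0.10, adjusted p = 0.00213).

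Among the other UPR factors, Atf3, a stress-induced factor, rose to 1.49 ± 0.24 RPKM at 3.5 g/L, against 0.237 ± 0.069 in controls (1.01, SE 0.10, adjusted p = 1.9e-08), and by 0.74 at 2 g/L. Creb3l3, a liver ER-membrane factor of the acute phase and lipid metabolism, rose at 3.5 g/L (0.64, SE 0.09), as did Nfe2l1 (0.61, SE 0.06). Ddit4, an inhibitor of mTOR signalling, fell at 2 g/L (−0.51) and 3.5 g/L (−0.85, adjusted p = 0.00264 and 1.09e-05), and Ddit3 (CHOP), the pro-apoptotic factor, fell by 0.42 at 2 g/L (SE 0.13, adjusted p = 0.00966). Eif2s1, the translation factor that Eif2ak3 phosphorylates, rose at 1 g/L (0.31) and 2 g/L (0.61), and Creb3l2 fell at 1 g/L (−0.35). Xbp1 and the other UPR genes that come later in the alphabet than Olfr272 were not analysed here.

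Genes of glycosylation and transport are set against the 41.9% and 38.6% of all tested genes that rose at 2 and 3.5 g/L, and the 10% and 12.9% that fell. Of 23 tested genes of N-glycan transfer and trimming 6 rose and none fell at 2 g/L, and 2 rose and 6 fell at 3.5 g/L, among them the oligosaccharyltransferase subunit Ddost (−0.43, SE 0.08, adjusted p = 5.48e-05) and Alg12 (−0.22). Alg5 rose at all doses (0.23, 0.33 and 0.50), Alg14 at 2 and 3.5 g/L (0.46 and 0.46), and Alg10b (0.23) and Alg8 (0.23) at 2 g/L. Of 22 genes of ER exit and retrieval 9 rose and 1 fell at 2 g/L and 4 rose and 2 fell at 3.5 g/L, so that the rises were near or under the share of all genes. The falls at 3.5 g/L were Cope, a coat protein (−0.30, SE 0.08), and Kdelr2, a receptor that returns chaperones to the ER (−0.27, SE 0.10, adjusted p = 0.0191). Arcn1 and Arf1 rose at 2 g/L (0.35 and 0.29) and 3.5 g/L (0.28 and 0.22), and Copb2 at 2 g/L (0.24).

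Of 36 tested cytosolic and mitochondrial chaperones 6, 20 and 20 rose and 4, 5 and 4 fell at 1, 2 and 3.5 g/L, with medians of 0.11, 0.26 and 0.23. As deposited, rises outnumbered falls over all tested genes too (8.35%, 41.9% and 38.6% rose, 3.03%, 10% and 12.9% fell), and with median-ratio factors rises were 40.7%, 50.3% and 50.2% of all calls. At 3.5 g/L 9 of the 10 ER genes fell, at a median of −0.74; the difference between the lists was not tested. The mitochondrial co-chaperonin Hspe1 rose at 2 g/L to 71.2 ± 11 RPKM, against 38.6 ± 5.19 in controls (0.86, SE 0.12), and the cytosolic Dnaja2 at 3.5 g/L (0.62, SE 0.07) and Hspb1 at 2 and 3.5 g/L (0.79 and 0.74). The heat-inducible Hspa1b fell at 1, 2 and 3.5 g/L (−1.64, −2.37 and −1.52), and so did the near-identical Hspa1a (−1.004, −0.87 and −0.93), so that their division is uncertain. Dnajb1 (−0.47) and Fkbp5 (−1.08) fell at 1 g/L.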

How the data were processed

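RPKM values were used as the authors deposited them, in 1 table of 24 liver libraries. Partek, STAR 2.4, CASAVA and the genome build mm10 are named, without roles, per the submitters' processing notes. The gene annotation and strand setting are not given in the sources used here, although the kit is stranded per the labels' protocols. Zeros stand as 1e-04 RPKM. The table as held stops inside the line for Olfr272, which was dropped, as were 13 lines whose symbols had become dates, leaving 15582 genes. No column was left unused. Absolute depth is unknown, since the gene lengths behind the RPKM are not given.

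The filter kept a gene that reached 0.5 RPKM in 6 libraries. These genes were tested as log2(RPKM + 1) with limma 3.58.1 in R 4.3.3, with 1 mean per dose over all 24 libraries and a spread that followed expression level. Tests were two-sided, adjusted by Benjamini-Hochberg over 6540 genes, and the procedure was tested on simulated data. Derl3 reads came from the step shared by its values after scaling by relative depth. The 10 genes, the lists, the tests and the motifs were chosen with earlier results of these data known. All 10 genes are described. Of other lists, up to 4 genes per dose with the largest change past the test are named, and the 10 genes most alike within dose. Of the promoters with an ERSE at most 6 are shown, and that of Herpud1 was added. Alternatives covered scaling, pseudocount, filter, title tag and left-out libraries.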

Additional observations from a re-analysis of the deposited data

Results flagged for a closer look

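In 40 groups of 6 libraries (10 genes, 4 doses) a library far from the others of its dose was found 9 times, where chance gives about 1 in 20 groups. The 2 g/L library 78 was the highest in 6 of these: Derl3 at 2.30 RPKM (others 0.195 to 0.928), Calr at 310 RPKM (172 to 211), Hsp90b1 at 380 RPKM (185 to 231), Hyou1 at 108 RPKM (44.0 to 58.2), Dnajb11 at 28.8 RPKM (15.1 to 19.0) and Dnajc3 at 51.4 RPKM (26.9 to 31.6). Control 8 was the highest in Calr at 414 RPKM (268 to 310.3). Library 52 was the highest of 1 g/L in Herpud1 at 95.6 RPKM (47.5 to 61.6). Library 102 was the lowest of 3.5 g/L in Hyou1 at 36.3 RPKM (45.0 to 48.6). These genes vary together across libraries, so the flags are not independent.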

How the results depend on the processing

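At 3.5 g/L all 190 recomputed folds kept their direction and side of the threshold; the title tag as a term gives no value there. The tag as a term left 172, 973 and 956 genes called at 1 g/L, 2 g/L and from 1 to 2 g/L, with 1, 2 and 2 of the 10. For the slope, which then rested on 0, 1 and 2 g/L only, it left 853 genes and 2 of the 10. Within L1, 50 genes and 1 of the 10 were called at 1 g/L, and within L2, 589 genes and 0 of the 10 from 1 to 2 g/L. Median-ratio factors gave 4 of the 10 at 1 g/L, where 573 genes were called, 340 of these as falls. From 1 to 2 g/L no filter on low values gave 1 of the 10, with 360 falls among 1699 genes called. Leaving out control 8 and 2 g/L 78, chosen after seeing the data, gave 5 of the 10 there, with 434 falls among 1965 genes called. With only the libraries of both doses, 446 genes were called from 2 to 3.5 g/L. Leaving out 1 library gave 456 to 971 genes and 2 to 4 of the 10 at 1 g/L, 3050 to 3387 and 6 to 8 at 2 g/L, 3140 to 3307 and 9 at 3.5 g/L, 1445 to 1945 and 1 to 3 from 1 to 2 g/L, 465 to 654 and 0 from 2 to 3.5 g/L, and 3153 to 3349 and 9 for the slope. The lowest counts at 1 g/L were without control 3 (456), 1 g/L 52 (476) and 1 g/L 54 (484), and 4 of the 10 were called there without control 7. Values near 0 changed sign: from 1 to 2 g/L Hspa5 and Hyou1 were −0.084 and −0.087 under median-ratio factors, −0.089 and −0.125 under quantile normalization, −0.127 and −0.167 without control 8 and 2 g/L 78, and −0.127 to 0.117 and −0.167 to 0.09 with 1 library left out. Herpud1 (−0.1 to 0.151) and Dnajb9 (−0.033 to 0.143) did so from 2 to 3.5 g/L and the Dnajb9 slope (−0.031 to 0.016) with 1 library left out. Without control 8 and 2 g/L 78 the ratio to Hspa5 also changed sign for Dnajb9 at 2 g/L (−0.032) and Dnajb11 at 1 g/L (−0.016). The cause was not tested. No paired analysis was possible because the doses share no replicate numbers.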

Other observations

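The log2 ratio of each other gene to Hspa5 within a library, which library scaling does not touch, was compared between each dose and control after the data had been seen, in 27 exact two-sided permutation tests over 6 against 6 libraries. Ratios of Derl3 to Hspa5 averaged −10.6 ± 0.85 at 3.5 g/L, against −7.30 ± 0.67 in controls (SD, n = 6 each), with no overlap and the smallest exact p that 924 splits allow, 0.00216. Adjusted over the 27 it was 0.0584, as were the next lowest, and none passed 0.05. The ratio of Herpud1 to Hspa5 averaged −3.02 ± 0.48 at 2 g/L, against −1.63 ± 0.74 in controls (exact p = 0.00649, adjusted 0.0584). At 3.5 g/L the ratio of Dnajb9 to Hspa5 was higher, −3.90 ± 0.29, against −4.45 ± 0.42 in controls (exact p = 0.0216, adjusted 0.073). Those of Calr, Canx, Hsp90b1, Hyou1, Dnajb11 and Dnajc3 at 3.5 g/L differed from control by −0.09 to 0.24.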
